A study of Mus musculus with 2 samples.

Results

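Toll-like receptors and their partners were followed as 10 genes of the 32285 in the gene table. They were chosen by name, with earlier results of these data known. They were the receptor genes *Tlr1*, *Tlr2*, *Tlr4*, *Tlr7*, *Tlr8* and *Tlr13*, the co-receptor genes *Cd14* and *Ly96*, the adaptor gene *Myd88* and the inhibitor gene *Irak3*. They were measured by single-cell RNA sequencing of mouse heart cells taken 3 days after myocardial infarction (MI). Mononuclear macrophages positive for CD45, CD11b and CD64 had been sorted from infarct and border zones. The groups were wild type (WT) and CD40 knockout (CD40 KO), both after MI, with 1 library in each (10x 3′ tags), and no uninfarcted group was analysed here. The sources used here do not give the knockout allele, the strain, age and sex of the mice, or how many mice were pooled. Since each group is 1 library, differences have no replicate check and were not tested. Intervals in the text are exact 95% intervals that cover counting error only, and genotype cannot be told apart from differences between these mice, sorts or runs. The library labelled CD40 KO is called knockout-labelled.

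Toll-like receptors bind microbial molecules and molecules released by damaged tissue. TLR2 binds lipoproteins at the cell surface, and TLR1 is a receptor that can pair with it. TLR4 recognises lipopolysaccharide together with MD-2, the protein encoded by *Ly96*, after CD14 has passed the ligand on. TLR7, TLR8 and TLR13 bind RNA inside endosomes, TLR13 a stretch of bacterial ribosomal RNA. Most of these receptors signal through the adaptor MyD88 to IRAK kinases and NF-κB, and IRAK3, also called IRAK-M, restrains that step. In the infarcted heart macrophages and neutrophils carry many of these receptors and meet debris of dying cells.

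The mouse genes lie on several chromosomes (GENCODE vM21, build GRCm38), and *Tlr7* (chromosome X, 167304929 to 167330558), *Tlr8* (X, 167242696 to 167264329) and *Tlr13* (X, 106143204 to 106160493) are X-linked. *Tlr7* and *Tlr8* are neighbours, 40599 bases apart. The sex of the mice bears on these genes: *Xist*, a transcript of the inactive X, had 0 and 1 UMI in the macrophage-like cells of the WT library and the knockout-labelled library, and the Y-linked *Ddx3y* stood at 69.9 and 81.9 CPM. *Tlr2* (chromosome 3, 83836272 to 83841767), *Irak3* (10, 120141648 to 120202130), *Tlr1* (5, 64924679 to 64933563), *Tlr4* (4, 66827584 to 66930284) and *Ly96* (1, 16688051 to 16709611) are autosomal, as are *Cd14* and *Myd88*. *Myd88* lies within the annotated span of *Slc22a14* on the same strand, and *Irak3* overlaps *Gm47009* and the start of *Tmbim4* on the other strand. *Myd88* also overlaps *Acaa1a* on the other strand. The sources used here do not say how reads in such overlaps were assigned or whether strand was used, so counts of both genes are uncertain to that extent.

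Upstream sequence is shown for 3 members whose ratios between the libraries, given further on, span the range from higher to level: *Irak3*, *Tlr2* and *Tlr13*. The RefSeq table (GRCm38.p6) had an entry for 6 of the 10 members. Each line gives, 5′ to 3′ on the gene's strand, the part of the 250 bases before the RefSeq start that lies outside any annotated exon, and capitals mark matches to the motifs searched. The *Tlr2* stretch is chr3:83841768-83841858 (minus strand), the *Irak3* stretch, from the second entry of that gene, chr10:120202196-120202380 (minus strand), and the *Tlr13* stretch chrX:106143025-106143203 (plus strand).
Tlr2: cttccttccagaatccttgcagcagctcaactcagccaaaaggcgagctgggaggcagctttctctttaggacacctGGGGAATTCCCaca
Irak3: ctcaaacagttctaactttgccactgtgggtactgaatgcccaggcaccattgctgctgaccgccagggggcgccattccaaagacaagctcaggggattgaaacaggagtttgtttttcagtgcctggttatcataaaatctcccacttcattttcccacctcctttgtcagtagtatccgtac
Tlr13: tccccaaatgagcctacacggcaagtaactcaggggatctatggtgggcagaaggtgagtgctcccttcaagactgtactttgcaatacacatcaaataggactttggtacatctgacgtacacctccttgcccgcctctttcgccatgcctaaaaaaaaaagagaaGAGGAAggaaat
The motifs searched, on both strands, were the kappa-B consensus bound by NF-κB proteins, GAGGAA (an ETS core of the PU.1 type), TTGCNNAA (C/EBP type), an interferon response motif (a GAAA block, any 2 bases and another GAAA) and TATAAA. In *Tlr2* the capitals cover overlapping kappa-B matches from −173 to −163, counted from the RefSeq start. The kappa-B consensus was held by 7.25% of 32851 mouse promoters, searched over the full 250 bases. The stretches of *Tlr2*, *Irak3* and *Tlr13* shown are shorter, at 91, 185 and 179 bases, so the shares are not for equal lengths. *Tlr13* held GAGGAA from −83 to −78, and 23.3% of promoters held it somewhere in the full 250 bases. *Irak3* held none of these motifs in the stretch shown, and matches in the 65 bases nearest the start were not kept. The matches are a description of letters and not sites of binding.

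In all, 139343516 UMIs (unique molecular identifiers, 1 per captured transcript) came from 10624 barcodes of WT, at a median of 9353.5 per barcode. The knockout-labelled library gave 90057108 UMIs from 8146 barcodes, at a median of 5346.5. Filtering and doublet removal left 7247 and 7406 barcodes, and the libraries shared 23 barcode sequences. *Cd40* itself had 17.7 CPM (counts per 1000000 UMIs of a cell group) in macrophage-like cells of WT and 15.6 CPM in the knockout-labelled ones. Without knowing which part of the gene was deleted, a tag from its 3′ end checks nothing. Clusters were made without the 10 genes, the wider pathway list described further on or *Cd40*. Clusters 1 to 5, named macrophage-like from marker genes such as *Csf1r*, *C1qa* and *Adgre1*, form the class compared here, with 5239 barcodes in WT and 2384 in the other library at median depths of 11666 and 14910.5 UMIs. Cluster 12, led by *Mt1*, *Crip1* and *Ndufa3*, stood apart: it took in 4363 of the 7406 kept knockout-labelled barcodes and 19 of WT, at a median of 3205 UMIs in the former, and was given no name. It passed the same limit on macrophage markers as the named clusters, with a fraction of 0.893 of the markers at 50 CPM or more, and was set aside because it was nearly all from 1 library. Results are given for the class, and with cluster 12 where it changes them. Mitochondrial genes took 2.56% and 2.71% of class UMIs and ribosomal protein genes 9.82% and 11.7%.

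All 10 genes were detected in macrophage-like cells of both libraries. *Cd14* stood at 519 CPM (514 to 524) in WT and 805 CPM (797 to 814) in the knockout-labelled library. *Tlr2* stood at 106 (104 to 108) and 154 CPM (151 to 158). *Irak3* stood at 50.2 (48.6 to 51.8) and 80.0 CPM (77.5 to 82.6). These 3 genes were all higher in the knockout-labelled library. *Tlr1*, whose protein can pair with TLR2, stood at 20.6 (19.6 to 21.6) and 14.2 CPM (13.2 to 15.4). *Ly96* stood at 42.9 (41.4 to 44.4) and 32.3 CPM (30.7 to 34.0). Both were lower in the knockout-labelled library. *Tlr4* stood at 37.0 and 43.4 CPM, *Tlr7* at 32.2 and 29.4 CPM, *Tlr13* at 42.2 and 43.3 CPM, and *Myd88* at 39.0 and 35.3 CPM. *Tlr8* was the 1 member below the floor of 10 CPM used for counting, at 6.76 CPM from 517 UMIs and 6.99 CPM from 327 UMIs.

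**Figure D1:**
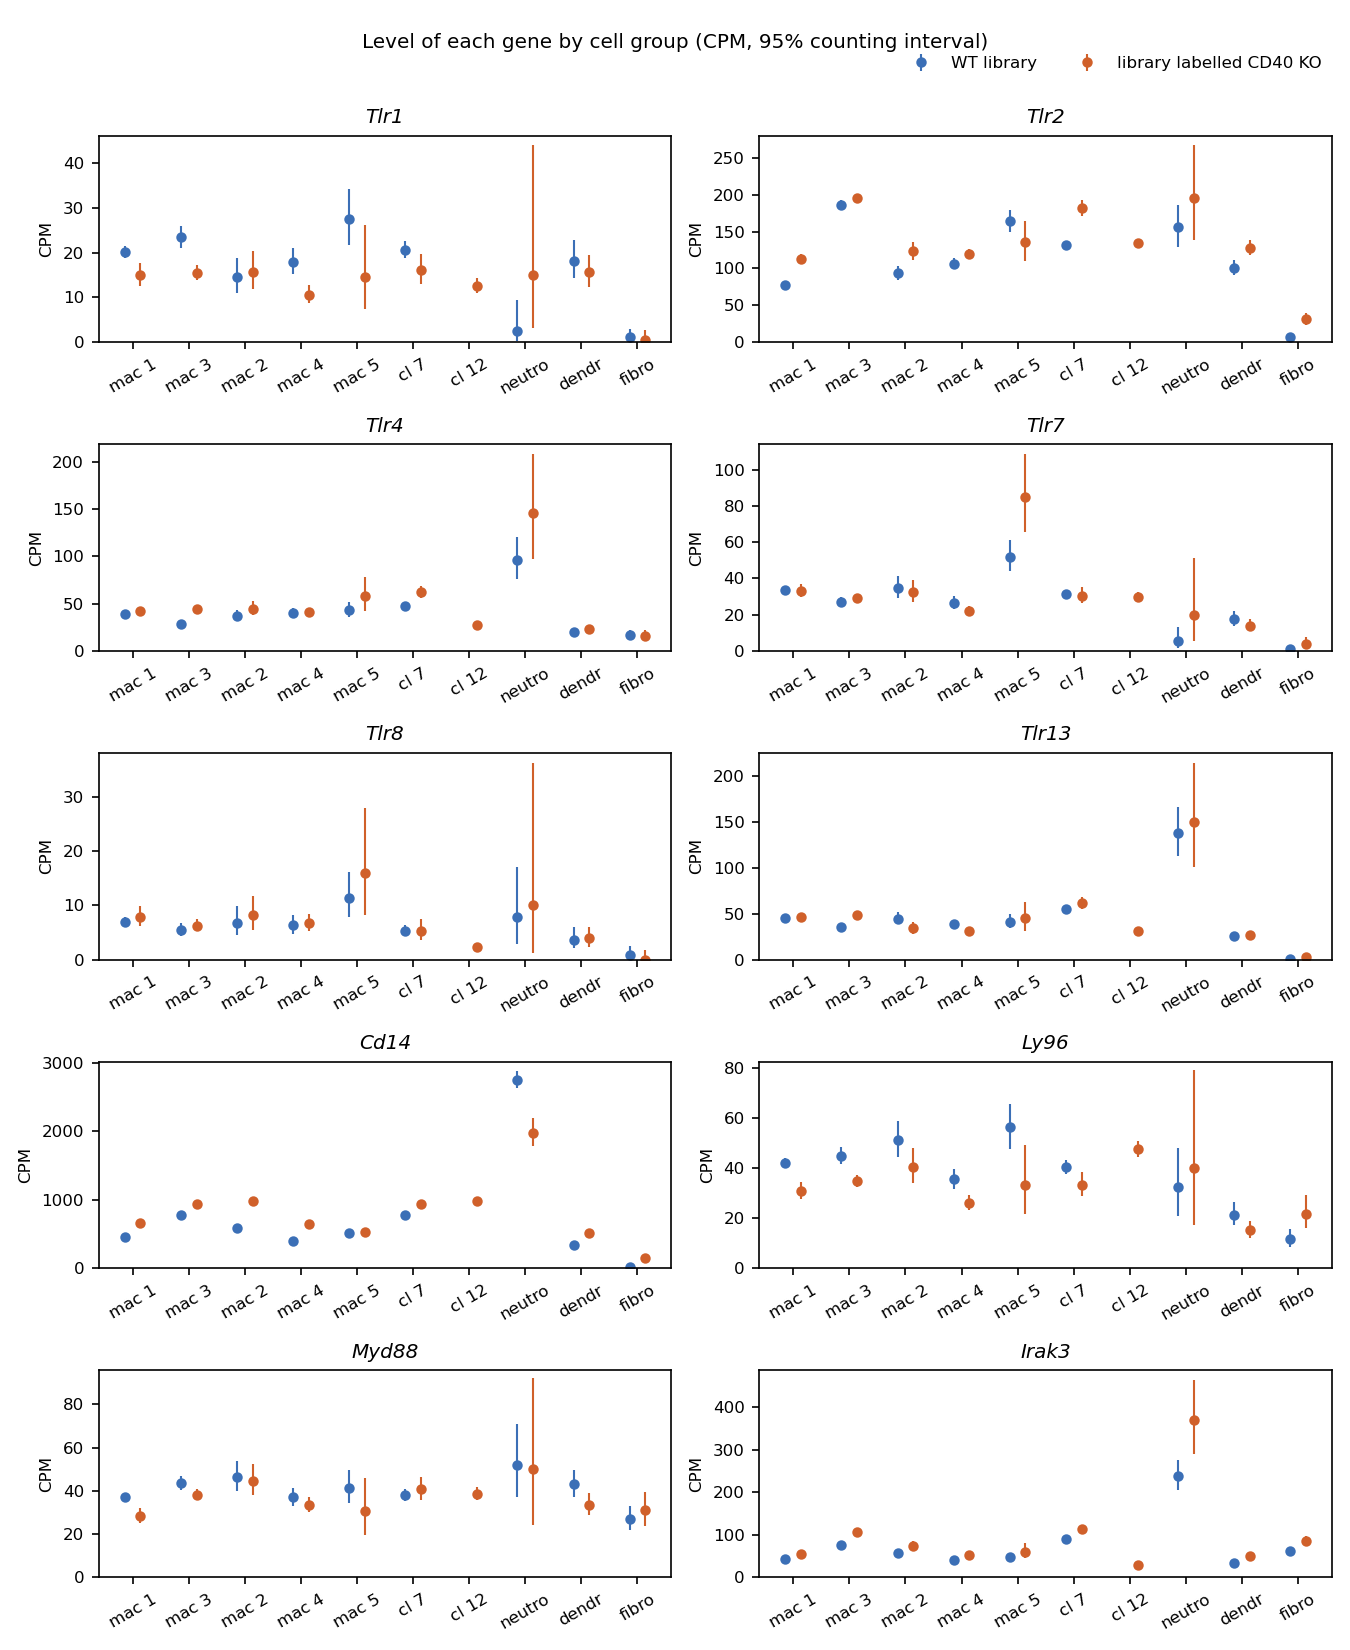
Level of each gene in counts scaled to 1000000 UMIs (CPM, vertical axis, linear from 0) in 10 cell groups, macrophage-like clusters 1 to 5 (mac), clusters 7 and 12 (cl), and neutrophil-like, dendritic-like and fibroblast-like clusters; points (blue for WT, orange for CD40 KO, not drawn under 50 barcodes) are the summed level of 1 library and bars the exact 95% counting interval. Of the groups drawn, *Cd14*, *Irak3*, *Tlr4* and *Tlr13* are highest in neutrophil-like barcodes of both libraries, where *Cd14* reaches 2752 CPM in WT, and *Tlr7* is highest in cluster 5.

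Set as ratios of the knockout-labelled library over WT, *Irak3* had a log2 ratio of 0.67 (0.61 to 0.74), *Cd14* of 0.63 (0.61 to 0.66), *Tlr2* of 0.54 (0.49 to 0.59), *Ly96* of −0.41 (−0.50 to −0.32) and *Tlr1* of −0.53 (−0.66 to −0.40). Of the 9 members at a mean of 10 CPM or more, 2 were higher by 1.5-fold or more, *Irak3* (1.59-fold) and *Cd14* (1.55-fold), and 0 were lower by as much. The same limits were passed by 8.87% (higher) and 3.52% (lower) of all 7587 genes measured at that floor. *Tlr2* (1.45-fold) fell just short of the limit. The ratio of *Irak3* was above that of 93.5% of measured genes, that of *Cd14* above 92.6%, that of *Tlr2* above 89.5%, that of *Ly96* above 9.28% and that of *Tlr1* above 5.02%. The median log2 ratio was 0.035 over the members, below the 0.096 over all measured genes. With median-of-ratios scaling, which removes that shift, no member was 1.5-fold higher (*Irak3* 0.58, *Cd14* 0.54) and 1, *Tlr1* at −0.63, was 1.5-fold lower. All measured genes then split into 480 higher and 461 lower, against 673 and 267 with CPM. *Tlr13* changed sign under that scaling, from 0.035 to −0.062, and *Tlr8* from 0.050 to −0.047.

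**Figure D2:**
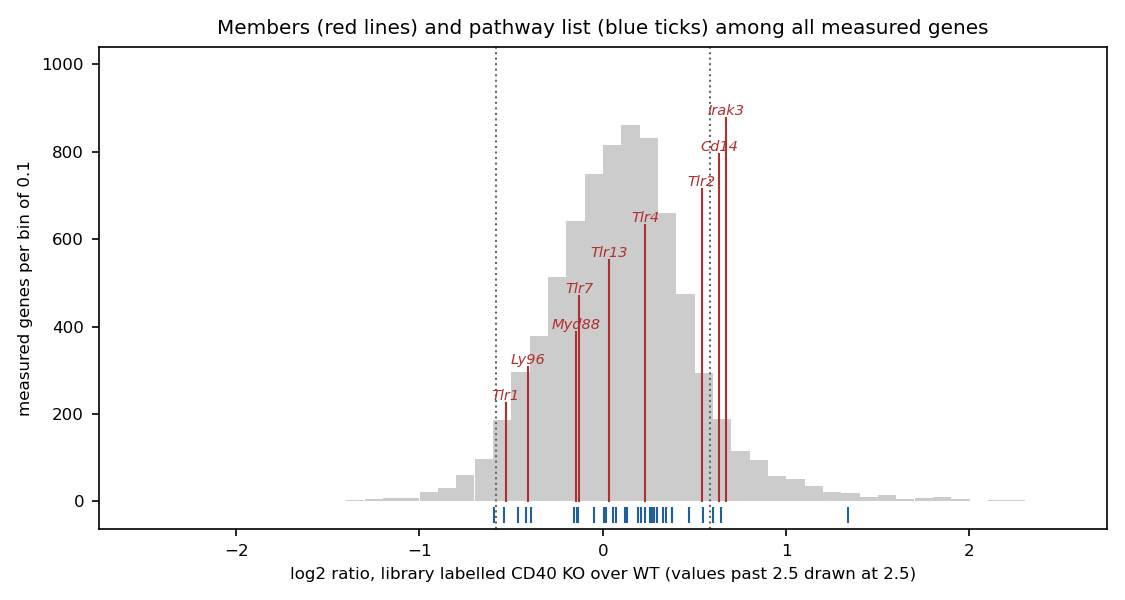
Histogram of log2 ratios (library labelled CD40 KO over WT, horizontal axis) of the 7587 measured genes in the macrophage-like class, as genes per bin of 0.1; red lines mark the 9 members at the floor of 10 CPM (their heights only separate the names), blue ticks the measured genes of the pathway list and dotted lines 1.5-fold. *Cd14* and *Irak3* lie past the upper dotted line and no member lies past the lower one.

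The class was not made up alike in the libraries. Cluster 1, led by *Gpnmb*, *Lpl* and *Fabp5*, genes of lipid-handling macrophages, held 52.7% of the class in WT and 18.6% in the knockout-labelled library. Cluster 3, led by *Plcb1*, *Met*, *Plac8*, *Vcan* and *Ly6c2*, several of them monocyte genes, held 26.5% and 51.3%. *Tlr2*, *Cd14* and *Irak3* were higher in cluster 3 than in cluster 1 within each library. In WT the log2 difference of cluster 3 over cluster 1 was 1.27 for *Tlr2* (77.1 and 186 CPM in clusters 1 and 3), 0.78 for *Cd14* (449.7 and 772 CPM) and 0.80 for *Irak3* (43.4 and 75.4 CPM). These were 3 of 9 members at least 1.5-fold higher in cluster 3, against 9.84% of all genes, and 0 were 1.5-fold lower, against 5.48%. In the knockout-labelled library the differences were 0.80 for *Tlr2* (112 and 195 CPM), 0.51 for *Cd14* (657 and 935 CPM) and 0.97 for *Irak3* (54.6 and 107 CPM), with 2 of 9 members past 1.5-fold higher against 10.7% of all genes and 0 lower against 7.21%. *Tlr4*, *Tlr7* and *Tlr13* were lower in cluster 3 than in cluster 1 in WT, by log2 differences of −0.44, −0.31 and −0.35. In the other library these were 0.057, −0.19 and 0.079.

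Within clusters 1 and 3 the ratios of *Irak3* and *Cd14* between libraries were smaller than over the class, and that of *Tlr2* was smaller in cluster 3. The ratio of *Cd14* was larger than over the class in clusters 2 (0.74) and 4 (0.67). In cluster 1 *Tlr2* kept a log2 ratio of 0.54 (0.44 to 0.64) and *Cd14* of 0.55 (0.51 to 0.59), while *Irak3* had 0.33 (0.19 to 0.47). There 0 of 9 members passed 1.5-fold in either direction, against 4.82% of all genes higher and 1.63% lower. In cluster 3 *Tlr2* was nearly level, at 0.073, *Cd14* had 0.28 (0.24 to 0.31) and *Irak3* 0.50 (0.40 to 0.61). *Tlr4*, the lipopolysaccharide receptor, stood there at 28.6 CPM (26.0 to 31.4) in WT and 44.1 CPM (41.3 to 46.9), a ratio of 0.62 (0.46 to 0.79), and *Tlr13* at 35.4 and 49.1 CPM (0.47). In cluster 3 *Tlr4* was the 1 member at least 1.5-fold higher, against 5.63% of all genes, and *Tlr1* (−0.60) the 1 member at least 1.5-fold lower, against 3.97%. Values of *Tlr4* and *Tlr13* in finer clusters are given further on. When each cluster was given the same share in both libraries the class ratios were 0.43 for *Irak3*, 0.43 for *Cd14*, 0.20 for *Tlr2* and 0.33 for *Tlr4*, and no member passed 1.5-fold. The lower members moved little, to −0.51 for *Tlr1* and −0.42 for *Ly96*.

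**Figure D3:**
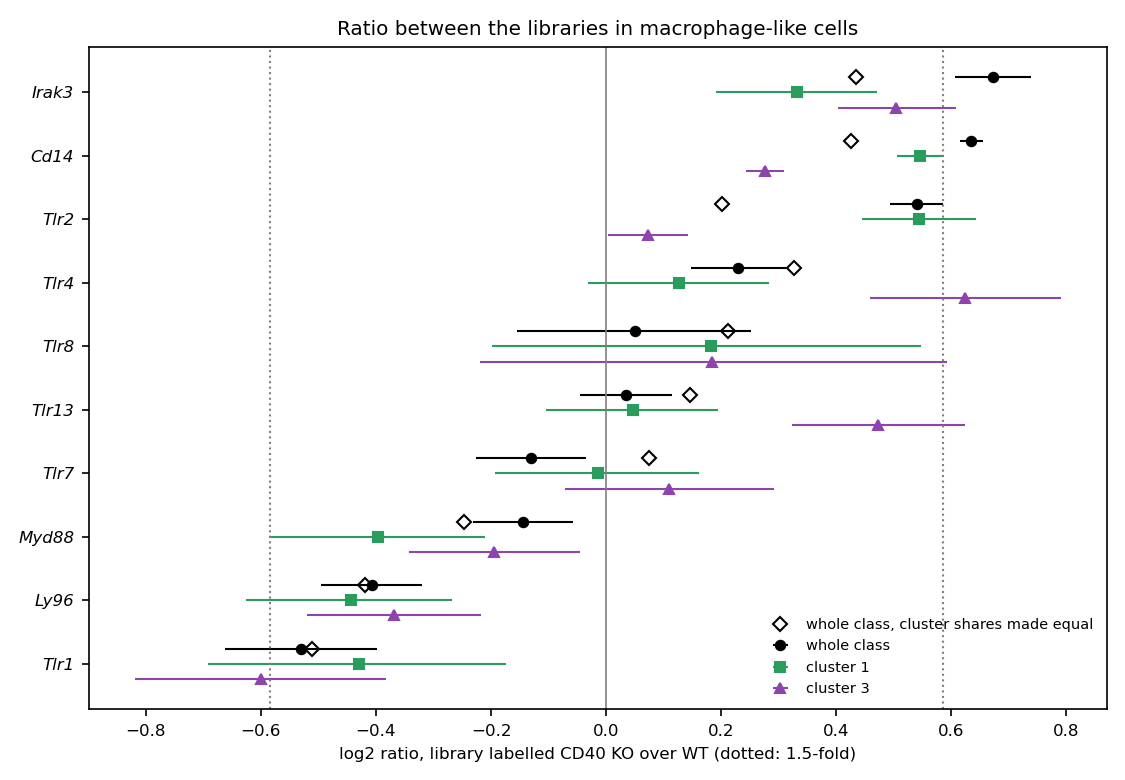
Log2 ratio of the knockout-labelled library over WT (horizontal axis) for each gene in the whole macrophage-like class, in the class with cluster shares made equal, in cluster 1 and in cluster 3; bars are exact 95% counting intervals (not drawn for equal shares) and dotted lines mark 1.5-fold. For *Irak3*, *Cd14* and *Tlr2* the open diamonds (0.43, 0.43 and 0.20) lie left of the filled circles, while for *Tlr1* and *Ly96* they lie close together.

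*Irak3*, the IRAK inhibitor, was the member whose ratio moved most when the shares of finer clusters were made equal. At a clustering resolution of 1.0 the class fell into 9 clusters, with 5149 and 2301 barcodes. In the cluster led by *Plcb1*, *Vcan* and *Met*, *Irak3* had 129.6 CPM (114 to 147) in WT and 118 CPM (113 to 124) in the knockout-labelled library, the highest levels among the 9 clusters in both libraries. This cluster held 3.92% of the class in WT and 32.8% in the other library. In the cluster led by *Lpl*, which held 30.8% and 5.13%, *Irak3* stood at 36.9 (34.6 to 39.3) and 37.4 CPM (30.2 to 45.7), and in that led by *H2-Aa*, with MHC class II genes, at 60.7 and 62.2 CPM. In these 3 clusters the intervals of the libraries overlapped, as they did in those led by *Rgs1* (56.5 and 61.5 CPM) and *Hist1h1b* (36.2 and 40.8 CPM). *Irak3* was higher in the knockout-labelled library in the clusters led by *Ifit3* (38.9 and 74.6 CPM), by *Saxo1* (48.2 and 74.6 CPM), by *Mir99ahg* (43.3 and 63.0 CPM) and by *Ppbp* (66.1 and 79.0 CPM). With the shares of the 9 clusters made equal, a setting added after these values were seen, the class ratio of *Irak3* was 0.12, against 0.67 without that step.

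*Cd14*, the co-receptor that hands lipopolysaccharide to TLR4, was higher in the knockout-labelled library in 8 of the 9 finer clusters. The pair of values was widest apart in the cluster led by *Rgs1* and *Pparg*, at 567 and 1188 CPM. That cluster held 551 and 130 barcodes, with *Dusp1*, *Jun*, *Atf3* and *Fos* also among its leading genes. The exception was the cluster led by *H2-Aa*, at 760.4 and 735 CPM. With the 9 shares made equal its ratio was 0.43. *Tlr2* was higher in 7 of the 9, most in the cluster led by *Rgs1* (72.5 and 146 CPM) and in that led by *Saxo1* (87.3 and 141 CPM). In the cluster led by *Plcb1* it stood at 209.9 and 206 CPM, and in that led by *H2-Aa* at 179 and 169 CPM, with overlapping intervals in both. *Ly96* was lower in the knockout-labelled library in 9 of 9 finer clusters, from a log2 ratio of −0.58 in the cluster led by *Hist1h1b* (33.6 and 22.4 CPM) to −0.11 in that led by *Ifit3* (47.9 and 44.5 CPM), the 1 cluster whose interval spanned 0. *Myd88* was also lower in 9 of 9, with the interval of the ratio below 0 in 3, and *Tlr1* in 8 of 9, with the interval below 0 in 5. With the 9 shares made equal *Ly96* had −0.45, *Tlr1* −0.51 and *Myd88* −0.30. *Tlr4* was higher in 7 of the 9 and lower in 2, with the interval above 0 in 3. It had 0.72 (0.32 to 1.14) in the cluster led by *Plcb1*, which held 202 and 754 barcodes. In that led by *H2-Aa*, with 1054 and 136 barcodes, it had −0.24 (−0.78 to 0.26). Its class ratio with the 9 shares made equal was 0.24.

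**Figure D4:**
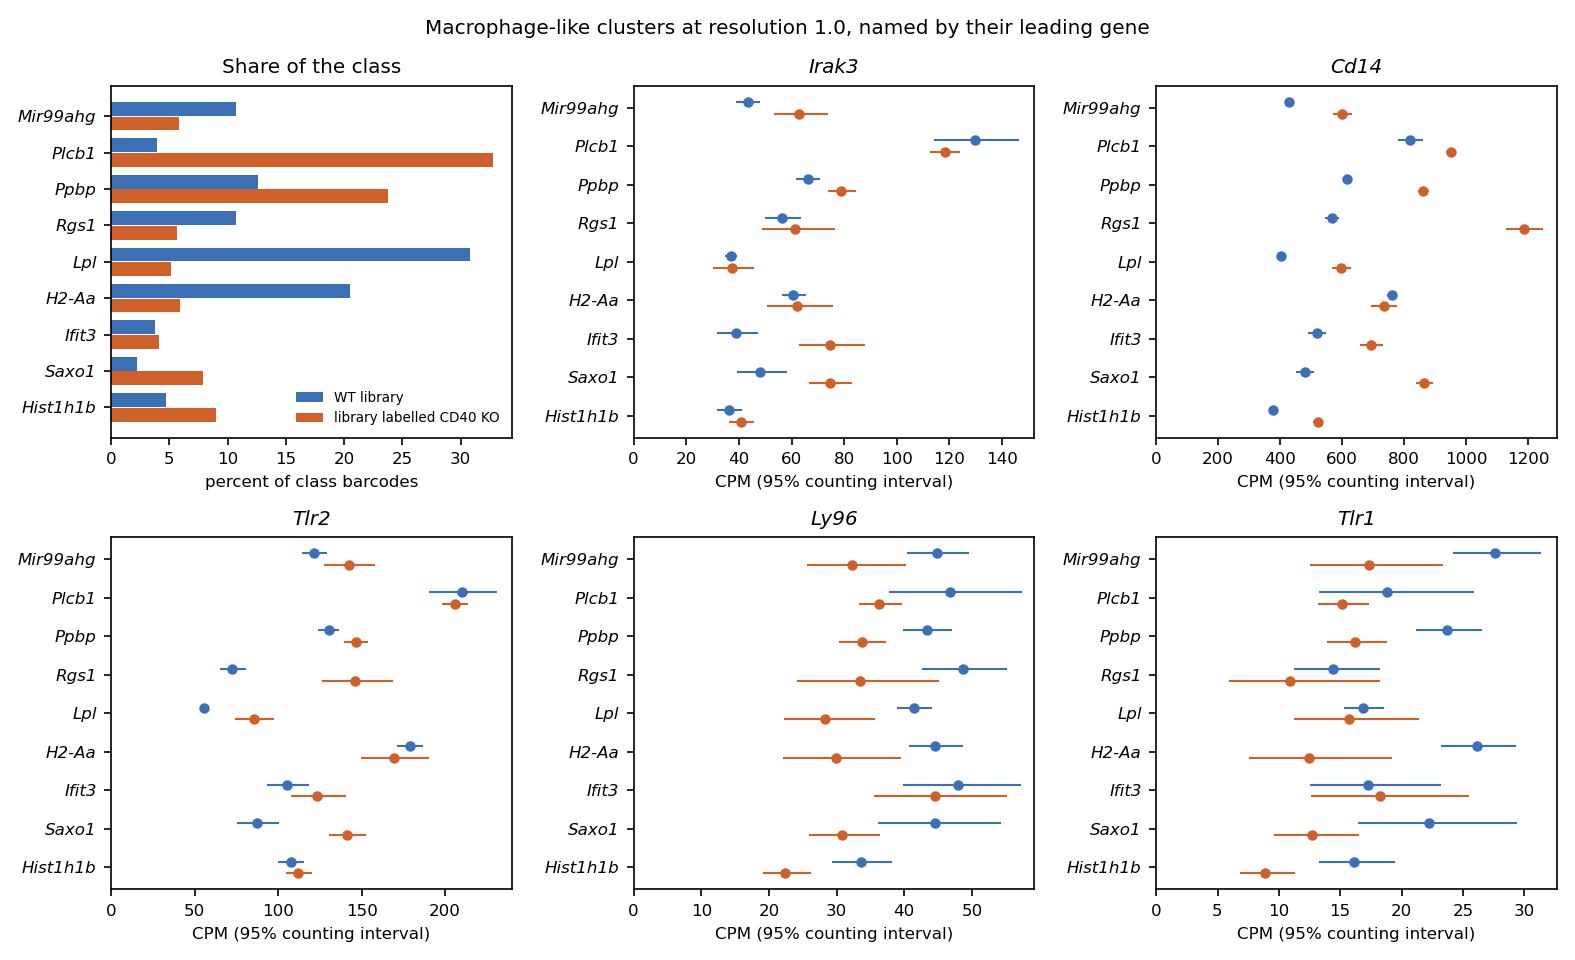
Macrophage-like class at clustering resolution 1.0, each cluster named by its leading gene: percent of class barcodes per cluster and library (bars, first panel), and level in CPM with exact 95% counting intervals for 5 genes (points). The *Plcb1* cluster has the highest *Irak3* and *Tlr2* in both libraries and 3.92% and 32.8% of the class, *Cd14* is higher in the knockout-labelled library in 8 of 9 clusters and *Ly96* lower in 9 of 9.

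The endosomal receptors had class levels that lay close together in the libraries and differed among clusters. *Tlr7* was highest in cluster 5, led by *Ccnb1ip1* and *Cubn*, at 52.0 CPM (43.9 to 61.1) in WT and 85.1 CPM (65.5 to 109) in the knockout-labelled library, the latter from 64 UMIs and at a median depth of 3755 UMIs per barcode. In the other macrophage-like clusters it stood between 26.5 and 34.9 CPM in WT and between 21.9 and 33.2 CPM in the other library. At resolution 1.0 the cluster led by *Ccnb1ip1* was left out of the class as too shallow. That cluster held 71 and 66 barcodes, at median depths of 1953 and 2735 UMIs. How many of them came from cluster 5 was not counted. At the finer resolution *Tlr7* was high in the cluster led by *Mir99ahg* and *Fcrls*, with *Mertk* and *Cbr2* among its leading genes, at 47.9 and 61.0 CPM. *Tlr8*, the neighbour of *Tlr7*, also had its highest value in cluster 5, at 11.4 CPM (7.79 to 16.1) from 32 UMIs in WT and from 12 UMIs in the other library, with intervals that overlapped those of other clusters. *Tlr13* stood between 35.4 and 45.1 CPM in the 5 clusters of WT and between 31.4 and 49.1 CPM in those of the other library. Its order was not the same in both: cluster 3 was the lowest of WT, at 35.4 CPM (32.5 to 38.5), and the highest of the knockout-labelled library, at 49.1 CPM (46.2 to 52.1). In each library its interval overlapped that of the next cluster in the order. At resolution 1.0 *Tlr13* was higher in the knockout-labelled library in 3 of 9 clusters and lower in 6. The interval of its ratio was above 0 in 0 of these and below 0 in 1. It stood at 46.8 and 52.9 CPM in the cluster led by *Plcb1* and at 32.7 and 25.5 CPM in that led by *H2-Aa*. Its class ratio with the 9 shares made equal was −0.057. For *Tlr7* the class ratio of −0.13 turned to 0.074 with cluster shares made equal.

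*Myd88*, the adaptor, stood between 36.9 and 46.4 CPM over the 5 macrophage-like clusters of WT and between 28.2 and 44.7 CPM in the knockout-labelled library, with the interferon cluster 2, led by *Ifit3* and *Rsad2*, highest in both. It had 52.0 and 50.1 CPM in neutrophil-like, 43.0 and 33.3 CPM in dendritic-like and 26.9 and 30.8 CPM in fibroblast-like barcodes, and 22.1 CPM from 43 UMIs in endothelial-like barcodes of WT. *Tlr1* stood between 14.6 and 27.4 CPM in the clusters of WT and between 10.6 and 15.7 CPM in the other library. Cluster 2 was the exception to its direction, at 14.6 (11.1 to 18.8) and 15.7 CPM (11.8 to 20.5) from 58 and 54 UMIs. *Ly96* was lower in the knockout-labelled library in all 5 clusters, from 35.5 and 26.2 CPM in cluster 4, led by *Scin* and *Top2a*, to 56.3 and 33.2 CPM in cluster 5.

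Shares of barcodes with a UMI, taken after thinning each barcode to 3000 UMIs, had the same directions as the ratios for *Cd14*, *Tlr2*, *Irak3*, *Tlr1* and *Ly96*. *Cd14* had a UMI in 68.8% of 5031 macrophage-like barcodes in WT and in 81.1% of 2289 in the knockout-labelled library, *Tlr2* in 25.6% and 35.6%, and *Irak3* in 14.1% and 21.4%. *Tlr1* had one in 6.06% and 4.02%, and *Ly96* in 12.1% and 9.92%. *Tlr7* was level, at 8.65% and 8.52%. Thinning left out 208 and 95 barcodes. Without thinning the shares were 90.8% and 95.5% for *Cd14*, 58.2% and 73.8% for *Tlr2*, 41.5% and 58.6% for *Irak3*, 23.3% and 22.2% for *Tlr1*, and 41.3% and 40.6% for *Ly96*, at median depths of 11666 and 14910.5 UMIs.

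*Cd14* and *Tlr2* were also read in cells of other types, where free RNA, doublets and the cells' own transcripts cannot be told apart. *Cd14* stood at 22.5 CPM (17.8 to 27.9) in fibroblast-like barcodes of WT and at 151 CPM (135 to 168) in those of the knockout-labelled library, and after thinning it had a UMI in 4.88% of 123 and in 31.9% of 72 such barcodes, at unthinned median depths of 23149 and 17427 UMIs. *Tlr2* stood there at 7.49 and 30.8 CPM. T-like or NK-like barcodes held *Cd14* at 4.56 CPM (41 barcodes) and 313 CPM (12 barcodes). With the fibroblast-like level of each library taken off, the class ratio was 0.40 for *Cd14*, 0.32 for *Tlr2*, −0.50 for *Tlr1*, −0.29 for *Tlr7* and −0.044 for *Tlr13*. *Irak3* was not treated this way. Fibroblast-like barcodes held it at 61.0 and 83.9 CPM, above the macrophage-like level of WT, and *Tlr4* at 16.9 and 15.6 CPM. The part of free RNA in the macrophage-like levels was not tested further.

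In neutrophil-like barcodes (cluster 0, led by *Retnlg* and *S100a9*, 305 in WT and 64 in the knockout-labelled library) the set had another profile. *Cd14* stood at 2752 CPM (2636 to 2872) in WT and 1980.3 CPM (1790 to 2186) in the other library, *Irak3* at 239 (206 to 276) and 371 (291 to 466), *Tlr13* at 138 (113 to 167) and 150 CPM (101 to 215), and *Tlr4* at 96.2 (75.5 to 121) and 145 CPM (97.4 to 209). All 4 were above the macrophage-like class of the same library, by log2 differences of 2.41, 2.25, 1.71 and 1.38 in WT, and in the other library the last 3 by 2.21, 1.80 and 1.74. *Tlr7* and *Tlr1* stood far below the class in WT, from 4 and 2 UMIs, at log2 differences of −2.63 and −2.98. In the other library *Tlr7* and *Tlr1* rested on 4 and 3 UMIs, with intervals of 5.46 to 51.3 CPM and 3.10 to 44.0 CPM that held the class levels of 29.4 and 14.2 CPM. In WT 4 of 9 members were at least 1.5-fold above the class and 2 below, against 24.5% and 37.8% of all genes, and in the other library 4 and 0, against 24.2% and 46.3%. *Cd14* was lower in the knockout-labelled library in these cells, at −0.475 (−0.63 to −0.32), and higher in macrophage-like ones, and the difference was not tested. The CD64 gate is one that would remove most neutrophils, and median depth here was 2359 and 2964.5 UMIs.

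Neutrophil transcripts were also counted in the class. Of 12 neutrophil markers, counted with no floor, 8 were at least 1.5-fold higher and 2 lower in the knockout-labelled library. With no floor, 8388 of 22909 detected genes were higher and 2485 lower by as much. At the floor of 10 CPM the shares were 8.87% and 3.52%. Summed levels of the neutrophil markers were 243 and 432 CPM. None was at 0, with ranges of 0.470 to 86.2 CPM and 0.299 to 220.1 CPM per marker. The defining neutrophil gene *S100a9* had 20.3 and 24.8 CPM there, against 18446 and 23348 CPM in neutrophil-like barcodes. A neutrophil profile scaled to that *S100a9* level would hold 3.03 and 2.11 CPM of *Cd14* and 0.263 and 0.394 CPM of *Irak3*. Scaled to *S100a8* (19.7 and 30.9 CPM in the class) it would hold 4.48 and 3.46 CPM of *Cd14* and 0.390 and 0.649 CPM of *Irak3*. Other marker lists, also counted with no floor, moved in the class too. Of 13 dendritic markers 11 were higher and 0 lower (summed 11.1 and 25.4 CPM), and of 8 fibroblast markers 7 were higher and 0 lower (17.3 and 38.8 CPM). Of 28 macrophage markers 7 were higher and 9 lower, with summed levels of 37193 and 21154 CPM. The part of these transcripts in the members' ratios was not tested. In cluster 7, which carried macrophage and neutrophil transcripts together (884 and 206 barcodes), *Irak3* stood at 89.1 and 113 CPM, *Tlr4* at 47.8 and 61.8 CPM and *Tlr13* at 54.7 and 61.3 CPM, each between the class and the neutrophil-like cluster. With cluster 7 added to the class no member was 1.5-fold higher.

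Dendritic-like barcodes (cluster 8, led by *Ccr7* and *Cd209a*, 254 and 241 barcodes) held less of most members than the class. *Tlr4* stood at 19.9 (15.8 to 24.7) and 22.8 CPM (18.9 to 27.3), *Ly96* at 21.4 and 15.2 CPM, *Tlr13* at 25.2 and 26.7 CPM, and *Cd14* at 341 and 519 CPM. *Tlr2* was close to the class of WT, at 101 and 128 CPM. *Cd14* (0.61), *Irak3* (0.56, at 33.7 and 49.9 CPM) and *Ly96* (−0.49) kept the directions they had in macrophage-like cells. Fibroblast-like barcodes (133 and 81) held *Tlr4* at 16.9 and 15.6 CPM, and the 208 endothelial-like barcodes of WT held it at 34.4 CPM (26.7 to 43.7), near the macrophage-like level. *Tlr1*, *Tlr7*, *Tlr8* and *Tlr13* were each at or below 3.79 CPM in fibroblast-like barcodes of both libraries, with *Tlr8* at 0 UMIs in the knockout-labelled ones, which allows up to 1.42 CPM (3 UMIs).

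Cluster 12 of the knockout-labelled library carried the same genes at other levels than the class of its own library. *Irak3* stood at 28.4 CPM (26.0 to 31.0) against 80.0 CPM in the class, a log2 difference of −1.50, and *Tlr4* at 27.7 CPM (25.3 to 30.3) against 43.4 CPM (−0.65). *Tlr13* had −0.50, *Tlr2* −0.20 and *Tlr7* 0.017, while *Cd14* (988 CPM, 0.30) and *Ly96* (47.7 CPM, 0.56) were higher. Thus 2 of 9 members were at least 1.5-fold lower and 0 higher, against 40.6% and 7.29% of all genes. Added to the class, it moved *Irak3* from 0.67 to 0.39, *Ly96* from −0.41 to −0.23 and *Cd14* from 0.63 to 0.72. Put in place of the class of its library, it gave −0.82 for *Irak3*, −0.42 for *Tlr4* and 0.15 for *Ly96* with signs opposite to those of the class, while with it added these 3 kept their signs (*Tlr4* 0.079). *Tlr13* went from 0.035 to −0.46 in its place and to −0.087 with it added, and *Tlr8* from 0.050 to −1.56 and −0.25. *Tlr1* (−0.71), *Tlr2* (0.34) and *Cd14* (0.93) had the same direction with cluster 12 in place. With barcodes gated one by one on markers, 5838 and 6375 passed as macrophages, and the ratio of *Irak3* was 0.31.

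Gene span moved with these differences. All measured genes were split by annotated span into 5 bins of equal size. The median log2 difference of cluster 12 over the class fell from 0.34 in the bin of the shortest genes to −0.025, −0.42, −0.76 and −1.15 in that of the longest. *Cd14* spans 1.7 kb, *Myd88* and *Tlr2* 5.5 kb, *Tlr1* 8.9 kb, *Irak3* 60.5 kb and *Tlr4* 102.7 kb. *Irak3* lay below the lower quartile of its bin (−1.05), as did *Tlr2* and *Tlr13*. *Ly96*, at 21.6 kb, *Tlr7* and *Tlr4* lay above the upper quartiles of theirs. For the class between libraries the medians ran the other way, from −0.11 for the shortest to 0.29 for the longest genes. There *Cd14* and *Tlr2* lay above the upper quartile of their bin (0.19) and *Irak3* above that of its own (0.36), while *Tlr1* (lower quartile −0.35) and *Ly96* (−0.13) lay below theirs. The sources used here do not say whether intron reads were counted, and the part of span in these ratios was not tested further.

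**Figure D5:**
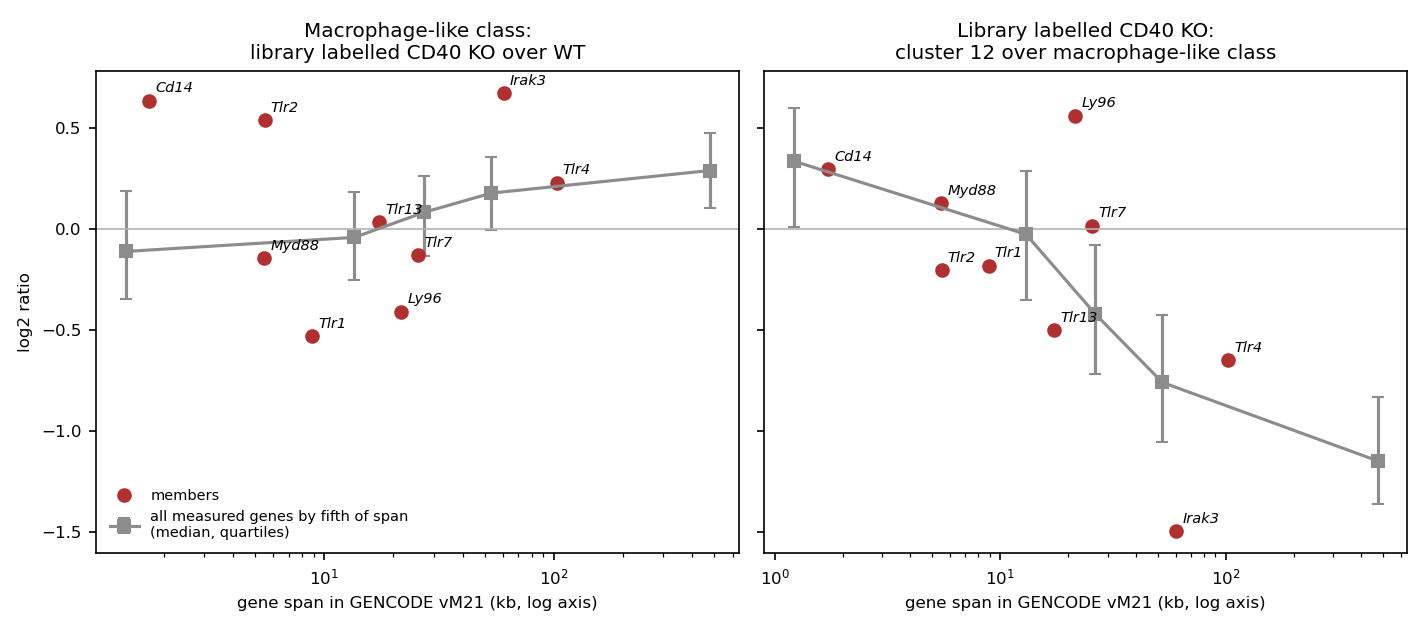
Log2 ratio (vertical axis) against annotated gene span in kb (log axis) for the class between libraries (left) and for cluster 12 over the class within the knockout-labelled library (right); squares are medians of all measured genes in 5 bins of span, bars their quartiles, and red points the 9 measured members. On the right the medians fall from 0.34 to −1.15 with span and *Irak3* lies at −1.50, while on the left *Cd14*, *Tlr2* and *Irak3* lie above the squares.

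The wider pathway was read from a list of 47 other genes of Toll-like receptor folding, traffic, adaptors, kinases, transcription factors and inhibitors, of which 34 reached the floor. In the class 3 of the 34 were 1.5-fold or more higher and 1 lower, beside 8.87% and 3.52% of all genes. The median log2 ratio of the list was 0.20, against 0.096 over all measured genes, and 0.10 with median-of-ratios scaling. The highest were *Nod2*, a cytosolic sensor of bacterial cell wall fragments (8.36 and 21.1 CPM, 1.34), *Ripk2*, the kinase that acts with it (50.1 and 78.3 CPM, 0.64), and *Tnip1*, an inhibitor of NF-κB signalling (86.0 and 131 CPM, 0.60). The lowest were *Hsp90b1*, the chaperone gp96 that folds Toll-like receptors (607 and 401 CPM, −0.60), *Unc93b1*, which carries endosomal receptors to their compartment (295 and 203 CPM, −0.54), and *Lgmn*, a lysosomal protease that can process them (1766 and 1281 CPM, −0.46). *Nod2* reached the floor in the class only through the knockout-labelled library, so its place in the count follows from the filter. In cluster 3, where it was above the floor in both libraries, it had 14.1 and 25.7 CPM (0.87), and in cluster 1 its mean was below the floor. *Hsp90b1* and *Unc93b1* were also lower within both, at −0.42 and −0.34 in cluster 1 and at −0.69 and −0.57 in cluster 3, and *Lgmn* had −0.13 and −0.33. With cluster shares made equal 1 of the list was 1.5-fold higher and 0 lower, and the list median was 0.067.

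Among cell groups the members fell into more than one pattern. Over 17 points (9 cell groups, each library its own point where it had at least 50 barcodes), Pearson's r of log2(CPM + 1) was 0.94 between *Cd14* and *Tlr2*, 0.95 between *Cd14* and *Tlr13* and 0.90 between *Tlr1* and *Tlr7*. It was −0.078 between *Irak3* and *Tlr1* and −0.020 between *Irak3* and *Tlr7*. The genes most like *Cd14* were *Nlrp3* (0.98), *Gk* (0.97) and *Rhog* (0.97). Those most like *Irak3* were *Sod2* (0.95), *Sgms2* (0.95) and *Morrbid* (0.93), and those like *Tlr2* included *Clec4a2* (0.98) and *Coro1a* (0.97). For *Tlr13* they were *Cd300lb* (0.99), *Tpd52* (0.99) and *Lcp2* (0.98), for *Tlr7* *Wdr81* (0.98), *Snx8* (0.96) and *Ifi207* (0.95), and for *Tlr1* *Irf5* (0.95), *Efhd2* (0.94) and *Snx8* (0.93). For *Tlr4* they were *Osgin1* (0.92), *Gtdc1* (0.91) and *Litaf* (0.90), for *Tlr8* *P2ry12* (0.95), *Dclre1c* (0.94) and *Milr1* (0.94), for *Ly96* *Cpd* (0.88), *Dgkz* (0.87) and *Sat1* (0.85), and for *Myd88* *Slfn1* (0.89), *Mcl1* (0.89) and *Rnf149* (0.88). The points share libraries and depth, so these values are descriptions. They also take in neutrophil-like, dendritic-like, endothelial-like and fibroblast-like groups, so they do not describe macrophage-like clusters alone.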

How the data were processed

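Sorted cells of 2 groups, with 1 library each, were profiled with 10x Chromium 3′ v3 chemistry, per the labels. The authors deposited unnormalized counts, UMIs per gene for every barcode, from Cell Ranger 7.0.1 (per the file headers). STAR and build mm10 are also named in the submitters' processing notes. Positions come from GENCODE vM21, which matched 32235 of 32285 genes and need not be the annotation behind the files.

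Kept were barcodes with 1000 or more UMIs, 500 or more genes and 10% or less mitochondrial UMIs (8094 and 7930). Scrublet's own threshold marked 39 and 0 doublets and was not used; instead the highest scores were removed at 0.8% per 1000 barcodes (903 and 531). Leiden clustering (scanpy 1.11.5, 2000 variable genes without the 10 genes, the pathway list and *Cd40*, 30 components, 15 neighbours, resolution 0.6) gave the clusters, named from marker lists with limits chosen with the clusters in view. Cluster 7 and the shallow cluster 6 stayed without a name. UMIs were summed per cell group and library and scaled to CPM, with exact Poisson intervals. Ratios have exact conditional (Clopper-Pearson) intervals, and the depth of a value is its UMI count. Shares were taken after thinning to 3000 UMIs. The scripts were tested on simulated data. The members and lists were chosen with earlier results of these data known. Named were all members, the 3 highest and 3 lowest of the pathway list, and the 3 genes most like each member, 1 of which is not reported here; leading genes of clusters, *Xist*, *Ddx3y*, *S100a8* and *S100a9* were named after their values were seen. Alternatives changed scaling, filters, class membership, cluster shares, depth and limits.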

Additional observations from a re-analysis of the deposited data

Results flagged for a closer look

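Some ratios of the knockout-labelled library over WT pointed one way in 1 cell group and the other way, or to another size, in another, with counting intervals that did not overlap. With 1 library per group the difference was not tested in any of these cases. *Tlr7* had 0.71 in macrophage-like cluster 5 and −0.28 in cluster 4. *Tlr13* had 0.47 in cluster 3, −0.38 in cluster 2 and −0.29 in cluster 4. In the 9 clusters at resolution 1.0 the interval of its ratio was above 0 in 0. *Cd14* had −0.475 in neutrophil-like barcodes, against 0.55, 0.74, 0.28 and 0.67 in macrophage-like clusters 1, 2, 3 and 4 and 0.61 in dendritic-like barcodes.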

How the results depend on the processing

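*Tlr2*, *Tlr4*, *Cd14* and *Irak3* were above 0 and *Tlr1*, *Ly96* and *Myd88* below 0 in the reported class ratio and in the alternatives other than those added later, 14 settings in all. *Cd14* passed 1.5-fold in 10 of these 14 settings and *Irak3* in 9. The ratio of *Tlr7* changed sign to 0.042 as a mean of per-barcode CPM, 0.074 with cluster shares made equal, 0.014 with barcodes thinned to 3000 UMIs and 0.11 in cluster 3 alone. With cluster 12 in place of the knockout-labelled class, *Tlr4* was −0.42, *Ly96* 0.15, *Irak3* −0.82, *Tlr8* −1.56 and *Tlr13* −0.46. *Tlr8* and *Tlr13* were also below 0 with single-barcode gates (−0.16 and −0.12) and over all barcodes (−0.17 and −0.092), where *Irak3* was 0.31 and 0.25. The number of members 1.5-fold higher, 2 in the class, was 0 with median-of-ratios scaling, with equal cluster shares, over all barcodes, with cluster 7 added and at 2-fold, and 1 with barcodes gated one by one. The number lower was 1 with median-of-ratios scaling or thinning and 2 at 1.3-fold. The members' median was −0.062 with median-of-ratios scaling, 0.15 as a mean of per-barcode CPM and also 0.15 with equal cluster shares, −0.093 with single-barcode gates, 0.13 with thinning, −0.084 over all barcodes and 0.63 at a floor of 50 CPM, where fewer genes are measured. In the pathway list (3 higher, 1 lower, median 0.20) the counts higher and lower were 1 and 2 with median-of-ratios scaling (median 0.10), 1 and 0 with equal cluster shares (0.067), 1 and 2 with single-barcode gates (0.061), 6 and 4 with no floor, 5 and 5 at 1.3-fold and 1 and 0 at 2-fold. The count higher was 1 over all barcodes (0.057), and the count lower was 0 with cluster 7 added or with mitochondrial and ribosomal protein genes out of the totals. Of all measured genes (673 and 267) the counts were 361 and 170 with equal cluster shares, 8388 and 2485 with no floor, 299 and 138 at 50 CPM, 1537 and 802 at 1.3-fold and 187 and 32 at 2-fold. The count lower was 461 with median-of-ratios scaling and the count higher 417 over all barcodes. Apart from the floor, for these changes the cause was not tested. No paired analysis was possible because each group has 1 library. *Tlr8*, below 10 CPM, is limited by depth. Settings using single clusters, cluster 12, fibroblast-like subtraction or equal shares at resolution 1.0 were added after seeing the data.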
